A study of Homo sapiens with 22 samples.

Results

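This account compares haematopoietic progenitor cells with the ectopic MYC gene switched on by doxycycline (DOX) with untreated cells (UT), both on day 14 of differentiation from H1 human embryonic stem cells. The members were chosen by their labels: 2 DOX and 2 UT libraries of day 14, 4 of the 22 libraries of the series, compared across all genes. H1 is an established stem cell line, and the cells of both groups were made from it by the same differentiation. The groups therefore share the line and the day and differ in doxycycline. The titles of all 22 libraries carry the same name, doxee17. They name no doxycycline-treated cells without the ectopic gene, so effects of the drug and of MYC cannot be told apart. The other libraries cover UT cells from day 10 to day 20 and DOX cells from day 12 to day 20, and they enter here only for the shared estimate of spread and for setting day 14 beside days 12 and 16. PolyA RNA was taken from 200000 cells a library. The labels name a single batch, do not say on which day doxycycline was added, and do not say whether the 2 replicates of a group came from separate cultures, so the p-values measure the spread between these samples, which may be technical.

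MYC is a transcription factor that binds DNA as a pair with MAX, with a preference for the E-box CACGTG. It is known for raising genes of ribosome assembly, nucleotide synthesis and the cell cycle. In blood formation MYC is high in dividing progenitors and falls as myeloid cells mature, while factors such as the C/EBP proteins and PU.1 turn on the granule, receptor and enzyme genes of granulocytes and monocytes.

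The 4 libraries held 43613203 and 47518926 counts in the DOX cells and 39654413 and 37858046 counts in the UT cells. Genes of the mitochondrial genome took 9.02% and 13.2% of the counts in the DOX libraries and 17.5% and 9.95% in the UT libraries, so replicate 1 of the UT cells stood highest. The replicates were separate libraries by their counts, and the UT pair differed more: 1048 genes were at least 2-fold apart between the 2 DOX libraries and 2129 between the 2 UT libraries. Levels are given as CPM, library-scaled counts with edgeR's TMM factors, which compare 1 gene between libraries and not different genes with each other. In bulk RNA, fewer cells of a type and less RNA per cell cannot be told apart.

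MYC itself (ENSG00000136997; GENCODE 29 on GRCh38 places it at 127735434 to 127741434 of chromosome 8, plus strand) had 164 and 183 CPM in the DOX libraries, against 88.7 and 58.0 CPM in the UT libraries. The groups did not overlap, and the UT pair lay further apart than the DOX pair. The log2 fold change was 1.24 (SE 0.24, 2.37-fold; edgeR quasi-likelihood test, Benjamini-Hochberg adjusted p = 0.00098), with 0.98 to 1.59 when each of the 4 libraries was left out. Counts under this gene name do not separate the chromosomal copy from the ectopic one. On day 12 the same contrast was 0.94 and on day 16 it was 1.03, and the day-14 value did not differ from the mean of these by the test (difference 0.26, SE 0.30, adjusted p = 0.79).

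Across the transcriptome, 5422 of 20115 tested genes (27.0%) passed the threshold of 0.05 on the adjusted p; in DOX cells 3070 of them were higher (15.3%) and 2352 were lower (11.7%). Changes of at least 2-fold were called for 2061 genes (10.2%), of which 882 were higher (4.38%) and 1179 lower (5.86%). The median log2 fold change of all tested genes was −0.015. The count of calls depended on single libraries: it was 3801 and 2824 without replicate 1 or 2 of the DOX cells, and 4156 and 3590 without replicate 1 or 2 of the UT cells. Calls with the same sign in all 4 of these fits numbered 2370 (43.7% of the called genes). The DOX and UT libraries did not overlap for 5411 of the called genes (99.8%). Genes picked by the test tend to be separate in the same 4 libraries, so this share adds no support to the calls. The share over all tested genes was not counted.

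Transcript length moved with the day-14 difference, so the counts and median of each gene list are also given with a length trend removed, in brackets in the order higher, lower and median. Each list's counts are to be read beside the shares of all tested genes, 15.3% higher and 11.7% lower. When genes were split into 10 parts by the length of their longest transcript, the median log2 fold change was −0.59 in the shortest part (75 to 776 bases) and 0.34 in the longest (6945 bases and over). Across genes, Spearman's rho between log2 fold change and length was 0.30 on day 14, 0.00 on day 12 and 0.04 on day 16; it is a description over 19782 genes of the same 4 libraries a day. By library, the median deviation of the longest part minus that of the shortest was 0.33 and 0.55 in DOX day 14 and −0.32 and −0.45 in UT day 14, while on day 12 it was 0.85 and 0.87 in DOX and 0.83 and 0.82 in UT. On day 16 it was −0.24 and −0.35 in DOX and −0.67 and −0.61 in UT. In sign, the DOX day-14 libraries stood with those of day 12 and the UT day-14 libraries with those of day 16. Whether RNA quality or library preparation took part in this was not tested. With a smooth length trend removed from each library, an alternative chosen after seeing the data, 4668 genes were called (23.2%), 2326 higher (11.6%) and 2342 lower (11.6%). Of the calls above, 66.5% of the higher and 80.0% of the lower genes were among them.

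**Figure D1:**
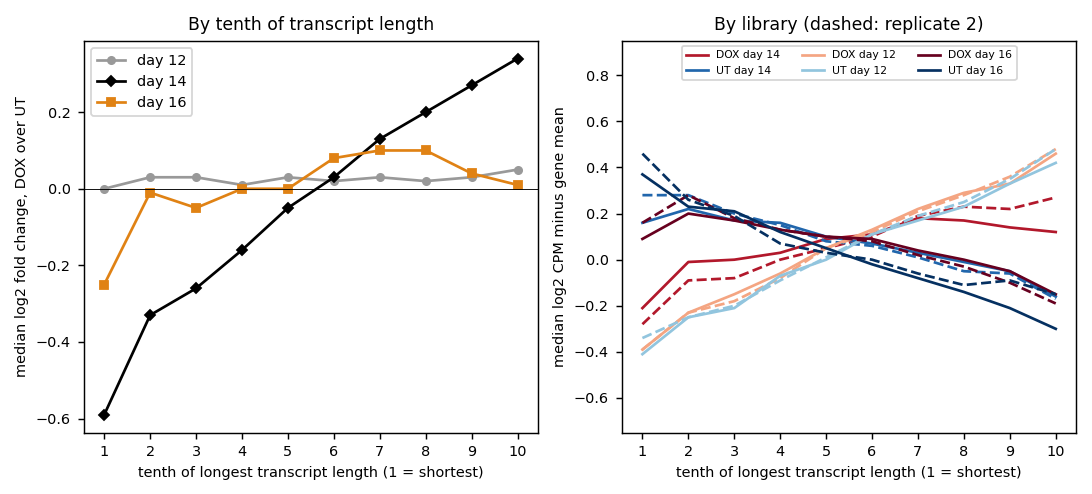
Left, the median log2 fold change of DOX over UT in each of 10 equal parts of the genes by longest transcript length, for days 12, 14 and 16; right, the median of log2 CPM minus the gene's mean over all libraries, for each of the 12 libraries of those days (solid line replicate 1, dashed line replicate 2). On day 14 the median is −0.59 in the shortest part and 0.34 in the longest, and the 4 day-12 libraries have steeper slopes of the same sign as the DOX day-14 libraries.

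Among genes with a mean of at least 2 CPM, the highest fold changes included C11orf87, PTX3, ALDH1L2, TET1, SLITRK5, ASNS, SFRP1, GULP1 and GSTA2. C11orf87 had 49.6 and 56.5 CPM in DOX cells and 0.952 and 1.27 CPM in UT cells (log2 fold change 5.57, SE 0.36, adjusted p = 3.2e-08). PTX3, a secreted pattern-recognition protein, had 22.8 and 18.5 CPM in DOX cells and 1.27 and 1.24 CPM in UT cells. TET1, an enzyme that oxidises methylated cytosine, had 4.52 and 5.98 CPM in DOX cells, against 0.635 and 0.684 CPM in UT cells. The groups did not overlap for any of these, and SFRP1, a secreted Wnt inhibitor, was called too (log2 fold change 2.86, SE 0.40, adjusted p = 4.5e-05). GSTA2, a glutathione transferase, was called at 3.28 (SE 0.65, adjusted p = 0.0012). The read-through genes BLOC1S5-TXNDC5, FMC1-LUC7L2 and HSPE1-MOB4 were also among the highest, but share their exons with their parent genes, so how the estimated counts were split is uncertain; BLOC1S5-TXNDC5 had 881 and 212 counts in DOX cells and 0 in both UT libraries, at least 160-fold higher against a floor of 3 counts a library.

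Among abundant genes, with a mean of at least 100 CPM, the highest changes were in ELF1, IARS1, FADS2, MMRN1, PRKAR2B and PRPF8. ELF1, an ETS-family transcription factor of blood cells, had 160 and 193 CPM in DOX cells and 55.7 and 52.2 CPM in UT cells (log2 fold change 1.71, SE 0.24, adjusted p = 4.5e-05). PRKAR2B, a regulatory subunit of protein kinase A, had 373 and 429 CPM in DOX cells and 154 and 136 CPM in UT cells. MMRN1, a protein of platelet granules, was 1.49 higher on the log2 scale (SE 0.33, adjusted p = 0.0024). The core spliceosome protein PRPF8 was called at 1.46 (SE 0.16, adjusted p = 4.2e-06).

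The lowest fold changes among genes of at least 2 CPM included C10orf82, OSM, LIF, HK3, KLF2, SIGLEC1 and CCL20. C10orf82 had 0.309 and 0.298 CPM in DOX cells and 5.28 and 3.97 CPM in UT cells (log2 fold change −3.92, SE 0.35, adjusted p = 8.5e-07). OSM and LIF, cytokines of the interleukin-6 family, were called at −3.78 (SE 0.42, adjusted p = 5.2e-06) and −3.69 (SE 0.53, adjusted p = 6.5e-05). HK3, the hexokinase of myeloid cells, had 1.62 and 0.98 CPM in DOX cells and 20.2 and 11.9 CPM in UT cells. For all of these the lowest UT library lay above the highest DOX library. KLF2, a zinc-finger factor that restrains activation of blood and endothelial cells, had 1.41 and 1.04 CPM in DOX cells and 12.1 and 11.8 CPM in UT cells (log2 fold change −3.29, SE 0.32, adjusted p = 1.7e-06). MMP25, a membrane-bound metalloproteinase of neutrophils, had 2.15 and 1.70 CPM in DOX cells and 17.5 and 15.8 CPM in UT cells (−3.11, SE 0.18, adjusted p = 1.2e-08). SIGLEC1, a sialic acid receptor of macrophages, and CCL20, a chemokine, were called at −3.45 and −3.23 (adjusted p = 0.00036 and 0.00014), as was DCANP1 at −3.66 (SE 1.01, adjusted p = 0.013). UPK3BL1, EIF3CL and DEFA1B also ranked here, but each has a near-identical copy that shares its reads, and DEFA1B kept its call in 1 of the 4 fits with a library left out, the one without replicate 2 of the DOX cells.

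**Figure D2:**
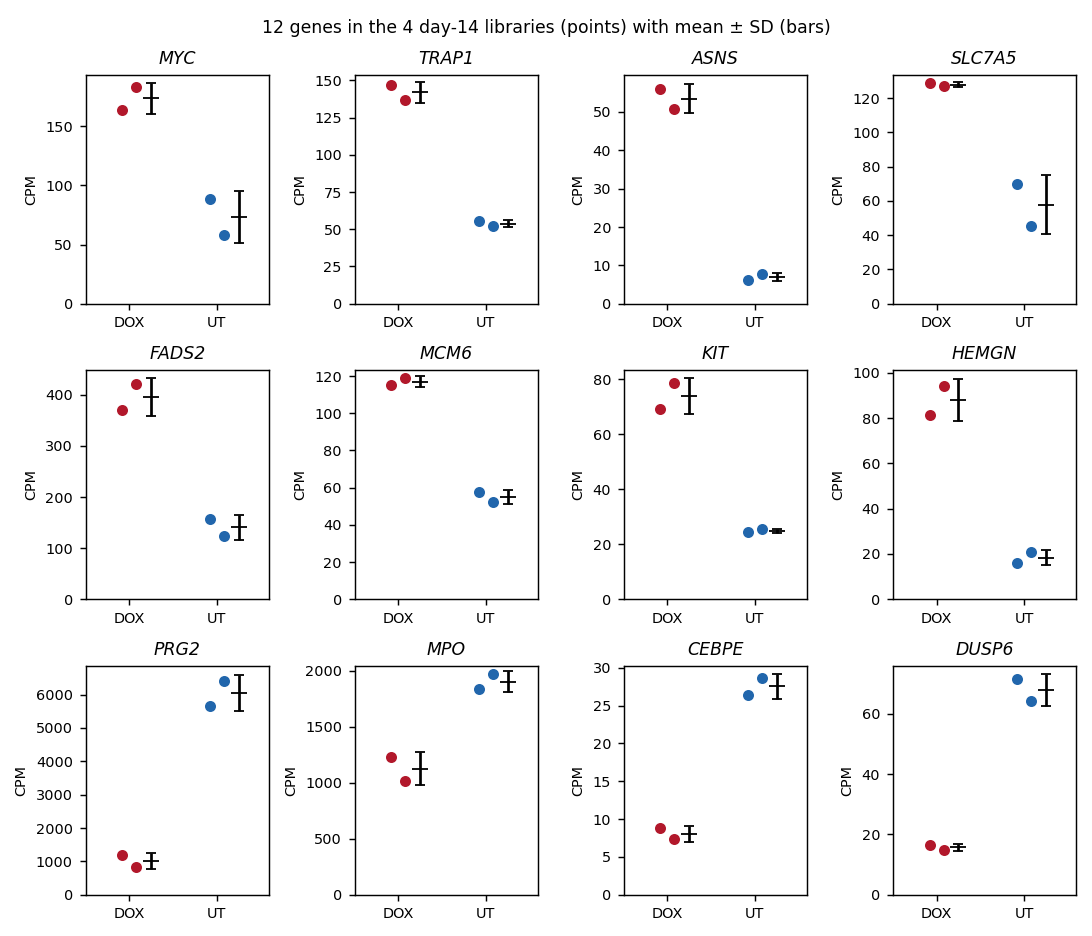
CPM of 12 genes in the 4 day-14 libraries; points are libraries (DOX left, UT right) and bars give the mean ± SD of the 2 libraries of a group. The 2 groups do not overlap in any panel: MYC has 164 and 183 CPM in DOX and 88.7 and 58.0 CPM in UT, and PRG2 has 1190 and 835 CPM in DOX and 5660 and 6420 CPM in UT.

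Partners and rivals of MYC moved less than MYC. Of 15 genes of the MYC and MAX network tested, 4 were higher, MYC itself being 1 of them, and 1 was lower. The list's median log2 fold change was −0.11 (4 higher, 3 lower and −0.11 with the length trend removed). Over all tested genes 15.3% were higher and 11.7% lower. The repressive MAX partners MXI1 (0.88, SE 0.17, adjusted p = 0.001), MNT (0.70, SE 0.15, adjusted p = 0.0016) and MGA (0.64, SE 0.19, adjusted p = 0.016) were higher in DOX cells. MGA lost its call without replicate 2 of the DOX cells or replicate 1 of the UT cells, and with the length trend removed, where it stood at 0.29. MAX, the shared partner, was called lower at −0.31 (SE 0.11, adjusted p = 0.039), a call absent in each of the 4 fits with a library left out.

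Genes known as direct MYC targets passed as higher far more often than as lower. Of 38 tested, 21 were higher, MYC itself being 1 of them, and 1, CCND2, was lower; the list's median was 0.53, against −0.015 over all genes, and 0.52 with the length trend removed (25 higher, 1 lower). TRAP1, the mitochondrial HSP90 chaperone, had 147 and 137 CPM in DOX cells and 55.4 and 52.1 CPM in UT cells (log2 fold change 1.40, SE 0.10, adjusted p = 8.4e-08). NOLC1, a nucleolar phosphoprotein, was called at 1.19 (SE 0.11, adjusted p = 1.1e-06), and CAD, which starts pyrimidine synthesis, at 1.19 (SE 0.20, adjusted p = 0.00027). The nucleolar protein NCL had 1240 and 1280 CPM in DOX cells and 628 and 877 CPM in UT cells (0.75, SE 0.17, adjusted p = 0.0037), a call lost without replicate 1 of the UT cells. The targets CDK4 and NPM1, a cell-cycle kinase and a nucleolar chaperone chosen after their values were seen, did not pass the test, at 0.10 (SE 0.13) and 0.17 (SE 0.16).

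The E-box was looked for in the 300 bases from 250 before to 50 after the start of each gene, in RefSeq promoters of GRCh38.p14; CACGTG reads the same on both strands, so a single search covers both. It was held by 9.66% of the 12470 tested genes matched to a promoter, and by 7.43% of all 27305 promoters of that length. Among matched genes called higher 11.7% held it, among those called lower 8.13%, and among those not called 9.35%. For changes of at least 2-fold the shares were 12.4% of the higher and 6.22% of the lower genes. The list of known MYC targets held it in 13 of 31 promoters (41.9%) and the ribosome biogenesis list in 19 of 37 (51.4%); the neutrophil primary granule, eosinophil and mast cell, and monocyte lists held it in 0 of 11, 0 of 17 and 0 of 20. These shares depended on the window: in the 200 bases before the start alone, the motif was held by 3 of 37 ribosome biogenesis genes (8.11%), 8 of 31 known MYC targets (25.8%) and 7.37% of all tested genes. Genes called higher held it there in 8.93% and genes called lower in 6.52%. A match is not a binding site, and target lists of this kind were in part compiled from such promoters. The 3 called targets with the highest fold changes among those with the motif were SLC7A5, WDR43 and TERT, and 30 bases around each motif are shown on the gene's strand, 5′ to 3′, with the E-box in capitals.
SLC7A5: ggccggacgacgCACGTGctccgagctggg
WDR43: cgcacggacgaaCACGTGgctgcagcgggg
TERT: gaccgcgcttccCACGTGgcggagggactg
These stretches lie at chr16:87869620-87869649 on the minus strand, chr2:28894658-28894687 on the plus strand and chr5:1295214-1295243 on the minus strand. The E-box begins 130 bases before the start of SLC7A5 and 163 bases before that of TERT, and lies just after the start of WDR43. The whole 250 bases before the start of SLC7A5, the large neutral amino acid transporter, are given because it was the highest of the 3, at chr16:87869508-87869757 on the minus strand, and they hold this single E-box.
SLC7A5 promoter: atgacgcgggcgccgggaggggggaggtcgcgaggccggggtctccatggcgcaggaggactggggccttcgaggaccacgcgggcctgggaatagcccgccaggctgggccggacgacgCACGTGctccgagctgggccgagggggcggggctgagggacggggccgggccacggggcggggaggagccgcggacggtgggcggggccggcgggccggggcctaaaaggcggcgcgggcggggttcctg
SLC7A5 had 129 and 127 CPM in DOX cells and 70.2 and 45.6 CPM in UT cells (log2 fold change 1.14, SE 0.20, adjusted p = 0.00034). WDR43, a ribosome assembly factor, had 71.4 and 79.3 CPM in DOX cells and 32.6 and 35.5 CPM in UT cells (1.14, SE 0.35, adjusted p = 0.021). TERT, the catalytic subunit of telomerase, had 5.87 and 5.42 CPM in DOX cells and 3.02 and 2.45 CPM in UT cells (1.04, SE 0.28, adjusted p = 0.0088). The groups were separate for each, but WDR43 lost its call without replicate 2 of the DOX cells or either UT library, and TERT without replicate 1 of the DOX or replicate 2 of the UT cells.

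Of 46 ribosome biogenesis factors 22 were higher and 1 lower and 23 did not pass, with a median of 0.38 (22 higher, 0 lower and 0.40 with the length trend removed). With any of the 4 libraries left out, 17 to 19 were higher. WDR3, a small-subunit processome protein, had 72.6 and 73.7 CPM in DOX cells and 30.6 and 23.9 CPM in UT cells (log2 fold change 1.43, SE 0.17, adjusted p = 1.3e-05). UTP20, URB2 and WDR12, which also take part in ribosome assembly, were called at 1.33, 1.28 and 1.22. The nucleolar methyltransferase FBL did not pass, with 187 and 158 CPM in DOX cells and 150 and 171 CPM in UT cells. Of 30 subunits and factors of RNA polymerases I and III, 15 were higher and 1 lower (median 0.53; 16, 1 and 0.40 with the length trend removed), among them POLR3D (1.38, SE 0.16, adjusted p = 9.8e-06), POLR3E (1.23), POLR1B (1.18) and POLR1A, the largest subunit of polymerase I, at 1.06 (SE 0.16, adjusted p = 0.00012). BDP1, a subunit of the initiation factor TFIIIB, was called at 1.15 but in only 1 of the 4 fits with a library left out, the one without replicate 1 of the DOX cells. Of 51 cytosolic ribosomal protein genes 2 were higher, RPL3 and RPSA, and 7 lower, with a median of −0.01. RPS19 and RPS24 were called at −0.54 (SE 0.15, adjusted p = 0.010) and −0.50 (SE 0.14, adjusted p = 0.013), and both calls were lost without replicate 2 of either group. With the length trend removed, 11 genes of this list were higher and 5 lower, with a median of 0.15. That trend used each gene's longest annotated transcript, with a median of 1962 bases over this list, which may not be the one expressed. As measured, the list's median was 0.39 on day 12 (6 higher, 0 lower) and 0.35 on day 16 (26 higher, 7 lower). The day-14 difference was called lower than that of day 12 for 9 of the 51 (1.16% of all genes were). It was called lower than that of day 16 for 9 as well (4.45% of all genes were). RPSA has many processed copies in the genome, which makes its count less certain.

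Of 24 aminoacyl-tRNA synthetases 17 were higher and 0 lower, with a median of 0.78 (18, 0 and 0.71 with the length trend removed). The higher count was 16 or 17 when any 1 of the 4 libraries was left out. IARS1, the cytosolic isoleucine enzyme, had 206 and 219 CPM in DOX cells and 69.8 and 72.5 CPM in UT cells (log2 fold change 1.58, SE 0.10, adjusted p = 2.3e-08). MARS2, the mitochondrial methionine enzyme, was called at 1.97 (SE 0.32, adjusted p = 0.00017), and AARS1, LARS2 and VARS1 at 1.12, 1.17 and 1.13. Of 32 translation factors 14 were higher, 1 lower and 17 not called (median 0.33; 15 higher, 2 lower and 0.36 with the length trend removed). Leaving out a library gave 10 to 15 higher. EEF2, which moves the ribosome along the message, had 1530 and 1470 CPM in DOX cells and 879 and 825 CPM in UT cells (0.82, SE 0.12, adjusted p = 5.2e-05), and the scaffold EIF4G1 was called at 0.98 (SE 0.13, adjusted p = 3.4e-05). EIF3C had 474 and 470 CPM in DOX cells and 228 and 211 CPM in UT cells, but shares reads with EIF3CL, which was lower. EIF4E, the cap-binding protein, had 81.8 and 81.3 CPM in DOX cells and 59.0 and 70.9 CPM in UT cells and did not pass the test (0.33, adjusted p = 0.072).

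Nucleotide, serine and folate enzymes that passed the test were higher, except MTHFD2L. Of 28 purine and pyrimidine synthesis genes 18 were higher and 0 lower (median 0.58; 13 higher, 0 lower and 0.46 with the length trend removed). PPAT, which commits to purine synthesis, had 50.1 and 49.7 CPM in DOX cells and 19.6 and 20.9 CPM in UT cells (log2 fold change 1.30, SE 0.14, adjusted p = 3.2e-06), and GART and CTPS1, which act in purine and CTP synthesis, were both called at 1.18. Of 21 serine and folate cycle enzymes 12 were higher and MTHFD2L was lower (median 0.77; 12, 1 and 0.64 with the length trend removed). ALDH1L2, a mitochondrial folate dehydrogenase, had 17.3 and 16.2 CPM in DOX cells and 1.32 and 1.03 CPM in UT cells (3.83, SE 0.30, adjusted p = 3.5e-07). The serine synthesis enzymes PSAT1 and PHGDH were called at 2.10 (SE 0.19, adjusted p = 7.9e-07) and 0.83 (SE 0.17, adjusted p = 0.0015), and the mitochondrial folate enzyme MTHFD1L at 1.41 (SE 0.15, adjusted p = 4.7e-06).

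Genes of the ATF4 amino acid response, the programme that cells use when amino acids are short, split in their direction. Of 20 tested, 11 were higher and 5 lower (median 0.61; 11, 3 and 0.71 with the length trend removed). The lower count was 2 without replicate 2 of the DOX or of the UT cells. ASNS, asparagine synthetase (ENSG00000070669, chromosome 7, 97852118 to 97872542, minus strand), had 56.1 and 50.8 CPM in DOX cells and 6.22 and 7.78 CPM in UT cells, a 7.63-fold difference (log2 fold change 2.93, SE 0.26, adjusted p = 6.7e-07). The secreted hormone STC2 and CHAC1, which degrades glutathione, were called at 2.63 (SE 0.32, adjusted p = 1.5e-05) and 2.46 (SE 0.49, adjusted p = 0.0011). Those lower were DDIT3, ATF5, CEBPB, GADD45A and VEGFA, stress factors and a growth factor rather than enzymes, with CEBPB at −1.71 (SE 0.17, adjusted p = 1.5e-06). CEBPB and DDIT3 (−1.12) were called in all 4 fits with a library left out, VEGFA (−0.34) in 0, and DDIT3 and VEGFA were named after their values were seen. ATF4 itself had 362 and 318 CPM in DOX cells and 360 and 383 CPM in UT cells, and the groups overlapped. Of 19 amino acid transporters 11 were higher and 3 lower (median 0.56; 9, 4 and 0.28 with the length trend removed), with the glycine transporter SLC6A9 at 2.57 (SE 0.31, adjusted p = 1.1e-05) and the cationic amino acid transporter SLC7A1 at 1.22 (SE 0.14, adjusted p = 9.9e-06). Of 20 polyamine, arginine and proline enzymes 7 were higher and 4 lower (median −0.13; 6, 4 and −0.06 with the length trend removed). ASS1, which makes the arginine precursor argininosuccinate, had 21.8 and 17.5 CPM in DOX cells and 3.21 and 3.02 CPM in UT cells (2.66, SE 0.31, adjusted p = 9.9e-06), while ARG1, which breaks arginine down, had 0.132 and 0.0568 CPM in DOX cells and 1.59 and 1.40 CPM in UT cells (−3.95, SE 0.58, adjusted p = 9e-05). ODC1, which starts polyamine synthesis, was called at 0.79 (SE 0.16, adjusted p = 0.0012). SAT1, an acetylase of polyamine breakdown, had 114 and 104 CPM in DOX cells and 336 and 505 CPM in UT cells (−1.95, SE 0.17, adjusted p = 4.6e-07).

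Of 25 genes of sterol and fatty acid synthesis 17 were higher and 1 lower, with a median of 0.90 (17, 0 and 0.66 with the length trend removed). The median was the highest of the 43 lists as measured, but with the length trend removed it lay below those of the tRNA synthetases and the ATF4 response, both at 0.71. FADS2, which desaturates fatty acids, had 370 and 422 CPM in DOX cells and 158 and 123 CPM in UT cells (log2 fold change 1.5, SE 0.15, adjusted p = 2.3e-06). ELOVL5, which lengthens fatty acids, was called at 1.28 (SE 0.14, adjusted p = 4.7e-06), and ACACA, which makes malonyl-CoA, at 1.21 (SE 0.14, adjusted p = 7.9e-06). On day 12 the same list had 0 higher and 1 lower, with a median of 0.10, and the day-14 minus day-12 difference was called higher for 7 of the 25 genes (1.79% of all genes were). Over all genes, calls for this difference fell from 595 to 238 with the length trend removed, and they rested on single libraries, as given below. The 7 calls were not counted again in those fits. Of 29 glycolysis genes 12 were higher and 2 lower (median 0.35; 12, 1 and 0.30 with the length trend removed). Among those higher were HK1 at 0.97 (SE 0.11, adjusted p = 1e-05), PFKM at 1.00 and the lactate transporter SLC16A1 at 1.01; SLC16A1 lost its call without replicate 1 of the UT cells. LDHA had 742 and 686 CPM in DOX cells and 535 and 494 CPM in UT cells (0.47, SE 0.13, adjusted p = 0.0088), a call lost without replicate 1 of the DOX or replicate 2 of the UT cells.

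For mitochondria, the nuclear genes of import, chaperones and organelle translation counted 16 higher and 0 lower of 37 (median 0.35; 21, 0 and 0.50 with the length trend removed). TWNK, the mitochondrial DNA helicase, had 19.8 and 20.3 CPM in DOX cells and 5.66 and 6.28 CPM in UT cells (log2 fold change 1.75, SE 0.21, adjusted p = 1.4e-05), and TFAM, which packages mitochondrial DNA, was called at 1.15 (SE 0.22, adjusted p = 0.00081). Nuclear subunits of oxidative phosphorylation counted 10 higher and 6 lower of 34 (median 0.13; 9, 4 and 0.08 with the length trend removed). With a library left out 5 or 6 were higher, and the lower count was 0 without replicate 2 of the DOX cells and 1 without replicate 2 of the UT cells. ATP5F1B, the beta subunit of ATP synthase, had 508 and 480 CPM in DOX cells and 258 and 265 CPM in UT cells (0.92, SE 0.13, adjusted p = 5e-05), and the complex I subunit NDUFA2 was called at −0.72 (SE 0.17, adjusted p = 0.0034), or −0.40 with the length trend removed, where it did not pass. Of the 13 mitochondrially encoded messages 0 were higher and 1, MT-CO1, was lower (median −0.03; 2, 0 and 0.23 with the length trend removed). On day 16, 0 were higher and 13 lower (median −2.33). MT-CO1 had 9290 and 12500 CPM in DOX cells and 24500 and 11800 CPM in UT cells, so the groups overlapped, and the call was lost without replicate 1 of either group.

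The replication and mitosis genes that passed the test were higher in DOX cells. Of 33 DNA replication genes 19 were higher and 0 lower (median 0.48; 15, 0 and 0.36 with the length trend removed). The count was 12 without replicate 2 of the DOX cells. The helicase subunit MCM6 had 115 and 119 CPM in DOX cells and 57.6 and 52.3 CPM in UT cells (log2 fold change 1.09, SE 0.13, adjusted p = 8.9e-06), and the polymerase alpha subunit POLA1, cyclin E2 (CCNE2) and MCM10 were called at 1.10, 1.03 and 1.01. Of 28 mitosis genes 16 were higher and 0 lower (median 0.44; 13, 0 and 0.48 with the length trend removed). The higher count was 10 and 9 without replicate 1 or 2 of the DOX cells. BUB1, a spindle checkpoint kinase, had 124 and 142 CPM in DOX cells and 54.5 and 62.1 CPM in UT cells (1.19, SE 0.13, adjusted p = 4.9e-06), and the spindle motor KIF20A was called at 1.03. Of 11 G1 cyclins, kinases and pocket proteins 6 were higher and 2 lower (the same counts, with a median of 0.35, with the length trend removed): RB1 and RBL1, which restrain E2F, were called at 1.00 and 0.88, and CCND1, a D-type cyclin, at −1.12 (SE 0.24, adjusted p = 0.0021). Of 23 CDK inhibitors and growth arrest genes 5 were higher and 5 lower (median −0.04; 5, 3 and −0.18 with the length trend removed). TNFRSF10B, a death receptor, was called at 0.96 (SE 0.14, adjusted p = 9.6e-05), CDKN2B, an inhibitor of CDK4 and CDK6, was called at −1.72 (SE 0.30, adjusted p = 0.00035), and CDKN1A did not pass (−0.42, adjusted p = 0.065). Of 15 genes of the BCL2 family 2 were higher and 3 lower (3, 3 and a median of −0.10 with the length trend removed), beside 15.3% and 11.7% of all tested genes. The killers BCL2L11 and PMAIP1 were called at 0.72 and 0.75, while the killer BAD was called at −1.26 (SE 0.23, adjusted p = 0.00045). The protectors BCL2A1 and BCL2L1 were called at −2.68 (SE 0.28, adjusted p = 3.3e-06) and −0.48 (SE 0.11, adjusted p = 0.0023). PMAIP1 lost its call without replicate 1 of either group, and BCL2L1 was named after its values were seen.

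**Figure D3:**
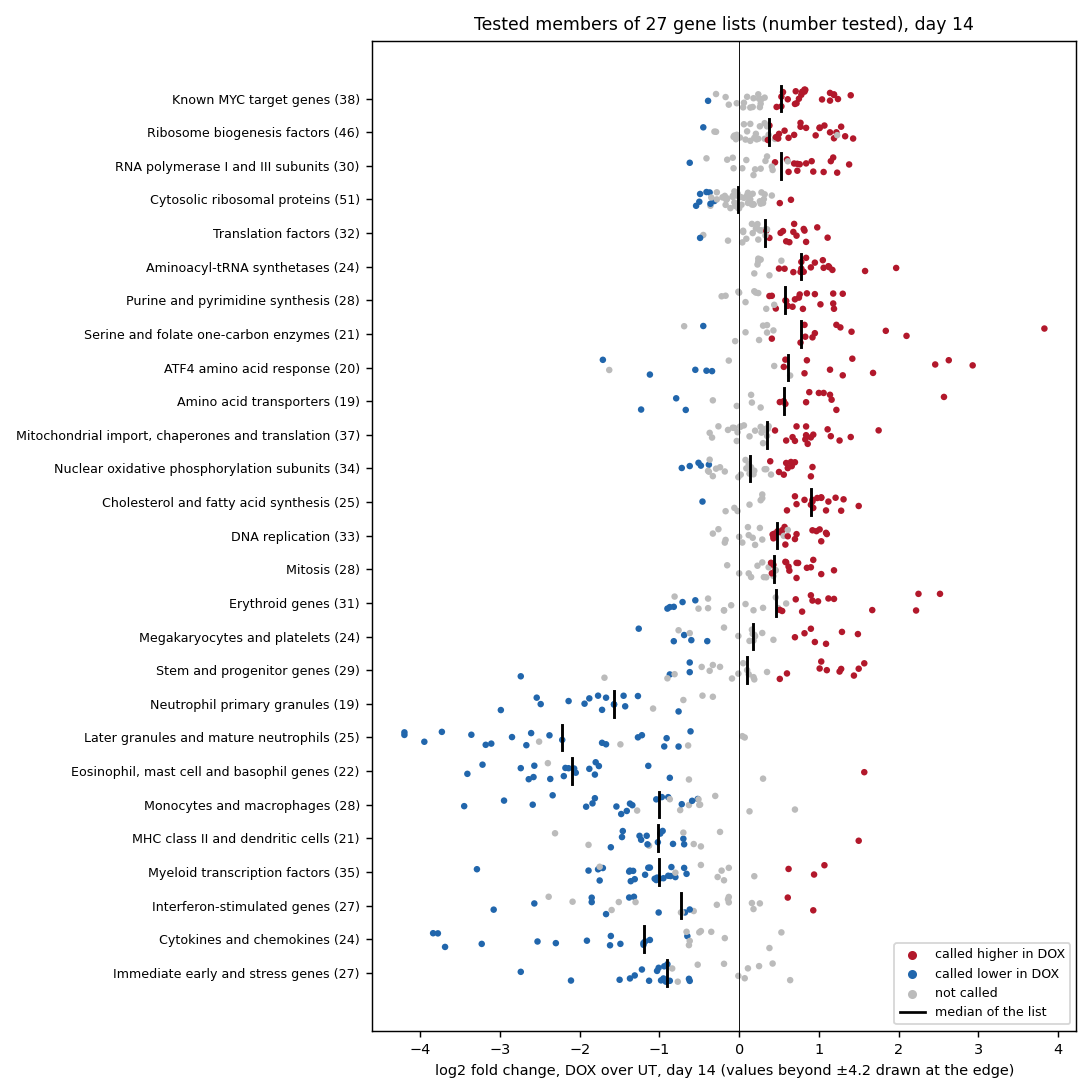
Log2 fold change of DOX over UT on day 14 for each tested member of 27 gene lists (number tested in brackets); colour gives the call at adjusted p under 0.05 and the black bar the list's median. Synthesis and cell-cycle lists lie mostly to the right (tRNA synthetase median 0.78, sterol and fatty acid median 0.90) and granule, eosinophil and myeloid factor lists to the left (later granule median −2.22).

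Most granulocyte genes were lower in DOX cells. Of 19 neutrophil primary granule genes 0 were higher and 15 lower, with a median of −1.57 (15 lower and −1.31 with the length trend removed), and 15 or 16 were lower when any of the 4 libraries was left out. MPO, myeloperoxidase, had 1230 and 1020 CPM in DOX cells and 1840 and 1970 CPM in UT cells (log2 fold change −0.76, SE 0.16, adjusted p = 0.0014). AZU1 and PRTN3, further proteins of the same granules, had larger differences: AZU1 had 50.9 and 41.4 CPM in DOX cells and 152 and 151 CPM in UT cells (−1.72, adjusted p = 3.4e-06), and PRTN3 was called at −1.67 (adjusted p = 3.8e-05). The defensin DEFA4 was called at −2.49 (SE 0.29, adjusted p = 9.2e-06) and DEFA3, which shares reads with DEFA1B, at −2.99. The elastase gene ELANE had 1.46 and 0.738 CPM in DOX cells and 2.77 and 1.87 CPM in UT cells and did not pass (−1.08, adjusted p = 0.057). AZU1, PRTN3 and ELANE are in the fixed lists but outside the rule for named genes, and were chosen after their values were seen. Of 25 genes of later granules and mature neutrophils 0 were higher and 20 lower (median −2.22; 0, 20 and −2.06 with the length trend removed). The tested members of this list summed to 392 and 332 CPM in DOX cells and 903 and 722 CPM in UT cells. LTF, lactoferrin, was low in both groups, with 0.0736 and 0.0284 CPM in DOX cells and 0.535 and 0.885 CPM in UT cells. CXCR1, a chemokine receptor of neutrophils, and CEACAM6, an adhesion protein, had 0 counts in both DOX libraries, at least 10.2-fold and 5.78-fold lower against a floor of 3 counts a library, and the median stayed at −2.22 with both at these bounds.

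Eosinophil, mast cell and basophil genes were mostly lower in DOX cells. Of 22 tested 1, KIT, was higher and 18 were lower (median −2.10; 2 higher, 17 lower and −1.85 with the length trend removed). PRG2, the major basic protein of eosinophil granules (ENSG00000186652, chromosome 11, 57386794 to 57390657, minus strand), had 1190 and 835 CPM in DOX cells, mean 1010 ± 252, and 5660 and 6420 CPM in UT cells, mean 6040 ± 535 (SD, n = 2 libraries each; log2 fold change −2.58, SE 0.20, edgeR adjusted p = 1.8e-07). CLC, the Charcot-Leyden crystal protein, had 311 and 222 CPM in DOX cells and 1600 and 1570 CPM in UT cells (−2.57, SE 0.19, adjusted p = 8.8e-08). EPX, eosinophil peroxidase, had 435 and 326 CPM in DOX cells and 1590 and 1070 CPM in UT cells, and was chosen after its values were seen. PRG3, a homologue of PRG2, and HDC, which makes histamine, were called at −2.18 (SE 0.20, adjusted p = 8.5e-07) and −2.74 (SE 0.24, adjusted p = 7.9e-07). MS4A2, a chain of the high-affinity IgE receptor, was called at −3.22 (SE 0.52, adjusted p = 0.00018), and MS4A3, a membrane protein of granulocyte precursors, at −2.54 (SE 0.18, adjusted p = 6.7e-08). RNASE2, the eosinophil-derived neurotoxin, had 37.5 and 29.3 CPM in DOX cells and 210 and 84.7 CPM in UT cells, with the UT pair well apart. Both MS4A3 and RNASE2 were counted in the neutrophil primary granule list above, so that list is not free of eosinophil genes. The marker set of eosinophils and mast cells summed to 1980 and 1420 CPM in DOX cells and 9130 and 9230 CPM in UT cells, that of granulocyte precursors to 1620 and 1300 CPM in DOX cells and 3070 and 3060 CPM in UT cells. Whether cell numbers took part in these differences was not tested.

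Of 28 monocyte and macrophage genes 0 were higher and 18 lower (median −1.0; 0, 16 and −0.98 with the length trend removed). Leaving out a library gave 12 or 13 lower. CD14, the endotoxin co-receptor, had 0.603 and 0.540 CPM in DOX cells and 4.81 and 2.09 CPM in UT cells (log2 fold change −2.59, SE 0.44, adjusted p = 0.00028), FCGR3A, an IgG receptor, was called at −2.95 (SE 0.44, adjusted p = 7.6e-05), and the matrix proteoglycan VCAN at −2.34 (SE 0.41, adjusted p = 0.00041). CSF1R, the receptor of macrophage colony-stimulating factor, had 67.1 and 69.0 CPM in DOX cells and 97.6 and 70.1 CPM in UT cells and did not pass (−0.30, adjusted p = 0.34). The monocyte and macrophage marker set summed to 157 and 176 CPM in DOX cells and 236 and 198 CPM in UT cells. Of 21 MHC class II and dendritic cell genes 1, FLT3, was higher and 13 lower (median −1.02; 0, 12 and −0.99 with the length trend removed). Only 7, 5, 7 and 8 were lower without replicate 1 or 2 of the DOX cells and replicate 1 or 2 of the UT cells, and FLT3 lost its call in all 4. CD74, the MHC class II chaperone, had 118 and 116 CPM in DOX cells and 307 and 240 CPM in UT cells (−1.23, SE 0.17, adjusted p = 4.6e-05), and the lipid-presenting CD1C was called at −1.47 (SE 0.24, adjusted p = 0.00022). HLA-DRB1 and HLA-DQB1 were called at −1.46 and −1.61; reads of such genes can be split among similar copies and alleles, and HLA-DQB1 lost its call without replicate 2 of the DOX or replicate 1 of the UT cells.

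The factors that direct myeloid differentiation were mostly lower. Of 35 myeloid transcription factors 3 were higher and 24 lower (median −1.0; 1, 25 and −0.96 with the length trend removed). SPI1, which encodes PU.1, had 56.2 and 49.7 CPM in DOX cells and 102 and 82.0 CPM in UT cells (log2 fold change −0.80, SE 0.17, adjusted p = 0.0018). CEBPE, needed for later granules, had 8.82 and 7.31 CPM in DOX cells and 26.4 and 28.7 CPM in UT cells (−1.77, SE 0.22, adjusted p = 1.6e-05), CEBPD was called at −1.75 (SE 0.19, adjusted p = 4.9e-06) and RUNX2 at −1.89 (SE 0.29, adjusted p = 0.00012). Of 23 growth factor receptors 4 were higher, among them KIT, and 12 lower (median −0.58; 3, 12 and −0.64 with the length trend removed). IL5RA, the alpha chain of the receptor for the eosinophil cytokine interleukin-5, had 8.74 and 5.30 CPM in DOX cells and 34.9 and 29.4 CPM in UT cells (−2.20, SE 0.19, adjusted p = 4.4e-07).

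The called cytokine, chemokine and early response genes were lower as well. Of 24 cytokines and chemokines 0 were higher and 15 lower (median −1.19; 0, 14 and −1.0 with the length trend removed). IL1B, an inflammatory cytokine, had 6.53 and 6.29 CPM in DOX cells and 10.9 and 7.26 CPM in UT cells and did not pass (−0.50, adjusted p = 0.12). Of 27 immediate early and stress genes 0 were higher and 17 lower (median −0.90; 0, 16 and −0.98 with the length trend removed). The count was 9, 11 and 10 without replicate 1 or 2 of the DOX cells or replicate 1 of the UT cells. DUSP6, a phosphatase induced by and acting on ERK, had 16.6 and 14.8 CPM in DOX cells and 71.5 and 64.1 CPM in UT cells (log2 fold change −2.11, SE 0.13, adjusted p = 2.3e-08). IER3, an early response gene, was called at −2.74 (SE 0.28, adjusted p = 2.7e-06), and the transcription factors FOS and EGR1 at −1.50 (SE 0.24, adjusted p = 0.00018) and −1.37 (SE 0.24, adjusted p = 0.00042). Of 27 interferon-stimulated genes 2 were higher and 10 lower (median −0.73; 2, 10 and −0.80 with the length trend removed), or 6 lower without replicate 1 of the DOX or replicate 2 of the UT cells. MX1, an antiviral GTPase, had 4.81 and 4.67 CPM in DOX cells and 14.0 and 20.3 CPM in UT cells (−1.85, SE 0.37, adjusted p = 0.001). Of 21 unfolded protein response genes 3 were higher and 8 lower (median −0.16; 1, 8 and −0.26 with the length trend removed), with the endoplasmic reticulum proteins CRELD2 and SDF2L1 at −1.83 and −1.74 and the sensor ATF6 at 0.92. Of 29 lysosome genes 3 were higher and 13 lower (median −0.29; 0, 9 and −0.34 with the length trend removed), and 4 to 7 were lower in the 4 fits with a library left out. The protease CTSD had 104 and 88.8 CPM in DOX cells and 225 and 190 CPM in UT cells (−1.11, SE 0.15, adjusted p = 4e-05).

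Erythroid genes went both ways, with membrane and regulatory genes among those higher and globins among those lower. Of 31 tested 13 were higher and 5 lower (median 0.46; 12, 2 and 0.45 with the length trend removed). Without replicate 2 of the DOX cells 8 were higher, and the lower count was 2 to 4 with a library left out. The erythroid marker set summed to 1260 and 1340 CPM in DOX cells and 1660 and 2060 CPM in UT cells. SPTB, the beta chain of the red cell spectrin skeleton, had 34.2 and 44.6 CPM in DOX cells and 7.32 and 6.39 CPM in UT cells (log2 fold change 2.52, SE 0.23, adjusted p = 8.5e-07). HEMGN, an erythroid nuclear protein, had 81.3 and 94.4 CPM in DOX cells and 16.0 and 20.8 CPM in UT cells (2.25, SE 0.35, adjusted p = 0.00013), and RHAG, the Rh-associated membrane protein, was called at 1.67 (SE 0.17, adjusted p = 2.3e-06). KLF1, the erythroid master factor, was called at 0.79 (SE 0.20, adjusted p = 0.0062), a call lost without replicate 2 of the DOX cells. Among globins, which were chosen after their values were seen, HBE1 had 324 and 351 CPM in DOX cells and 523 and 738 CPM in UT cells (−0.90, adjusted p = 0.0071; not called without replicate 1 of the DOX or replicate 2 of the UT cells) and HBA1 had 247 and 260 CPM in DOX cells and 431 and 467 CPM in UT cells (−0.82, adjusted p = 0.0018). Globin messages are short and their copies share reads; with the length trend removed HBE1 stood at −0.59 and did not pass (adjusted p = 0.060) and HBA1 stood at −0.49 (adjusted p = 0.035). HBG2, a fetal globin, had 598 and 624 CPM in DOX cells and 590 and 720 CPM in UT cells, and the groups overlapped.

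Of 24 megakaryocyte and platelet genes 7 were higher and 5 lower (median 0.18; 6, 2 and 0.11 with the length trend removed). The lower count of this list was 1 without replicate 2 of the DOX cells and 2 without replicate 2 of the UT cells. The megakaryocyte marker set summed to 2430 and 2790 CPM in DOX cells and 2780 and 3290 CPM in UT cells, so the groups overlapped. RAB27B, needed for platelet granules, had 262 and 327 CPM in DOX cells and 138 CPM in both UT libraries (log2 fold change 1.09, SE 0.18, adjusted p = 0.0002). PPBP, a platelet granule chemokine, had 468 and 492 CPM in DOX cells and 908 and 1400 CPM in UT cells (−1.26, SE 0.20, adjusted p = 0.00016), and ITGA2B, the platelet integrin alpha chain, did not pass (0.16, adjusted p = 0.45). Stem and progenitor genes were mixed as well, 10 higher and 4 lower of 29 (median 0.10), and 6 and 5 with the length trend removed (median −0.16). Their higher count was 6 to 8 with a library left out, 6 without replicate 1 of the UT cells. KIT, the stem cell factor receptor, had 69.2 and 78.6 CPM in DOX cells and 24.4 and 25.5 CPM in UT cells (1.57, SE 0.22, adjusted p = 5.2e-05), and ANGPT1, the angiopoietin made by stem cells, was called at 1.44 (SE 0.18, adjusted p = 1.6e-05). Those lower were GATA2, a factor of stem and progenitor cells, with 110 and 85.9 CPM in DOX cells and 183 and 175 CPM in UT cells (−0.87, SE 0.15, adjusted p = 0.00033), MYB (−0.62), a factor of dividing progenitors, EGFL7 (−0.62) and the barely detected AVP (−2.74, SE 0.73, adjusted p = 0.0087). GATA2, MYB and EGFL7 were named after their values were seen. CD34, the defining surface marker of progenitors, had 40.4 and 36.2 CPM in DOX cells and 34.3 and 33.5 CPM in UT cells and did not pass (0.18, adjusted p = 0.69). The 8 progenitor markers all had at least 10 counts in each of the 4 libraries, and summed to 1250 and 1280 CPM in DOX cells and 1420 and 1500 CPM in UT cells.

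Chromatin regulators counted 12 higher and 0 lower of 27 (median 0.37). These transcripts are long, and with the length trend removed 4 were higher and 2 lower (median 0.22); 3 to 8 were higher in the 4 fits with a library left out. The maintenance methyltransferase DNMT1 had 110 and 127 CPM in DOX cells and 60.0 and 57.4 CPM in UT cells (log2 fold change 1.01, SE 0.29, adjusted p = 0.015), a call kept in 1 of those 4 fits, the one without replicate 1 of the DOX cells. It was lost with the length trend removed (0.76, adjusted p = 0.062). EZH2, the Polycomb methyltransferase, did not pass (0.36, adjusted p = 0.059). Of 18 HOX genes listed 11 were tested. Among them 1, HOXB9, was higher and 2, HOXB2 and HOXB6, were lower (1, 0 and a median of −0.03 with the length trend removed), beside 15.3% and 11.7% of all tested genes. None of these 3 calls held in every fit with a library left out.

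Endothelial and fibroblast genes gave few calls, while 4 of 9 pluripotency genes were higher. Of 20 endothelial genes 2 were higher and 1 lower (2, 1 and a median of 0.09 with the length trend removed), and the endothelial marker set summed to 325 and 392 CPM in DOX cells and 305 and 276 CPM in UT cells. Of 19 fibroblast and smooth muscle genes 0 were higher and 1 lower (0, 2 and −0.24 with the length trend removed), and the fibroblast set summed to 23.2 and 27.3 CPM in DOX cells and 36.7 and 32.5 CPM in UT cells. The higher pluripotency genes (4 higher, 1 lower and a median of 0.49 with the length trend removed) were the let-7 inhibitors LIN28B (1.26, SE 0.15, adjusted p = 9.4e-06) and LIN28A (1.25, SE 0.30, adjusted p = 0.0047), the zinc-finger gene ZFP42 (1.36, SE 0.35, adjusted p = 0.007) and the methyltransferase DNMT3B (0.66, SE 0.12, adjusted p = 0.00041). LIN28A lost its call without replicate 2 of the DOX or replicate 1 of the UT cells, and ZFP42 without replicate 1 of the UT cells. SOX2, a defining pluripotency factor, had 0 counts in all 4 libraries and POU5F1 and NANOG had at most 5 each, and the pluripotency set summed to 84.5 and 107 CPM in DOX cells and 44.0 and 54.8 CPM in UT cells. Of 16 lymphoid genes 0 were higher and 3 lower (0, 2 and a median of −1.11 with the length trend removed). The lymphoid set summed to 0.795 and 0.809 CPM in DOX cells and 2.49 and 2.40 CPM in UT cells, and MS4A1 and VPREB1 were at 0.

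Day 14 lay between its neighbours in the number of calls, with 625 genes called on day 12 (3.11%), 5422 on day 14 and 8028 on day 16 (39.9%). On day 12 fewer genes were higher (170, 0.845%) than lower (455, 2.26%). On day 16, 4273 were higher (21.2%) and 3755 lower (18.7%). Mitochondrial genes took 21.0% and 19.5% of the counts in the DOX day-16 libraries and 55.9% and 53.5% in the UT day-16 libraries. Whether this took part in the day-16 calls was not tested. Tested directly, 595 genes (2.96%) had a larger or smaller day-14 than day-12 difference, 361 higher (1.79%) and 234 lower (1.16%). Against day 16 it was 1738 genes (8.64%), 842 higher (4.19%) and 896 lower (4.45%), and against the mean of days 12 and 16 it was 332 genes (1.65%), 199 higher (0.989%) and 133 lower (0.661%). These counts rested on single libraries. The count against day 12 was 28 to 133 without either DOX or either UT library of day 12 or without replicate 2 of the DOX or UT cells of day 14. The count against day 16 was 697 to 1146 without either DOX library of day 14 or 16 or replicate 2 of the UT cells of day 14 or 16. The count against the mean of both days was 533 without replicate 1 of the UT cells of day 14, 416 without replicate 1 of the UT cells of day 16, and 6 to 176 without any other library of the 3 days.

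The day-14 minus day-12 difference was called lower for MMP25, KLF2, OSCAR, an immune receptor of myeloid cells, HSH2D, an adaptor protein, and MT1X, a metallothionein. MMP25 had a log2 fold change of −1.01 on day 12, −3.11 on day 14 and −3.68 on day 16, and its day-14 minus day-12 difference was −2.10 (SE 0.28, adjusted p = 0.002), called in all 8 fits with a library left out. KLF2 stood at −1.07, −3.29 and −3.46 on the 3 days (difference −2.22, SE 0.46, adjusted p = 0.019, called in 3 of 8 fits with a library left out). By day the list medians kept their sign for most groups. Neutrophil primary granule genes had medians of −0.99, −1.57 and −0.87 on days 12, 14 and 16, eosinophil, mast cell and basophil genes −1.29, −2.10 and −1.68, and tRNA synthetases 0.39, 0.78 and 0.74. Megakaryocyte and platelet genes had −0.42, 0.18 and 1.48, with 0, 7 and 20 of 24 members called higher on the 3 days, and erythroid genes 0.22, 0.46 and 1.28. Against the mean of the neighbouring days, the day-14 difference was called lower for PF4 and PPBP, platelet granule chemokines, and HBE1, an embryonic globin. These calls held in 8, 7 and 3 of the 12 fits with a library left out, and none held with the length trend removed (adjusted p = 0.073, 0.074 and 0.087). PF4 stood at −0.88 on day 12, −0.82 on day 14 and 2.21 on day 16, with the opposite sign on day 16 (difference −1.48, SE 0.26, adjusted p = 0.015).

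**Figure D4:**
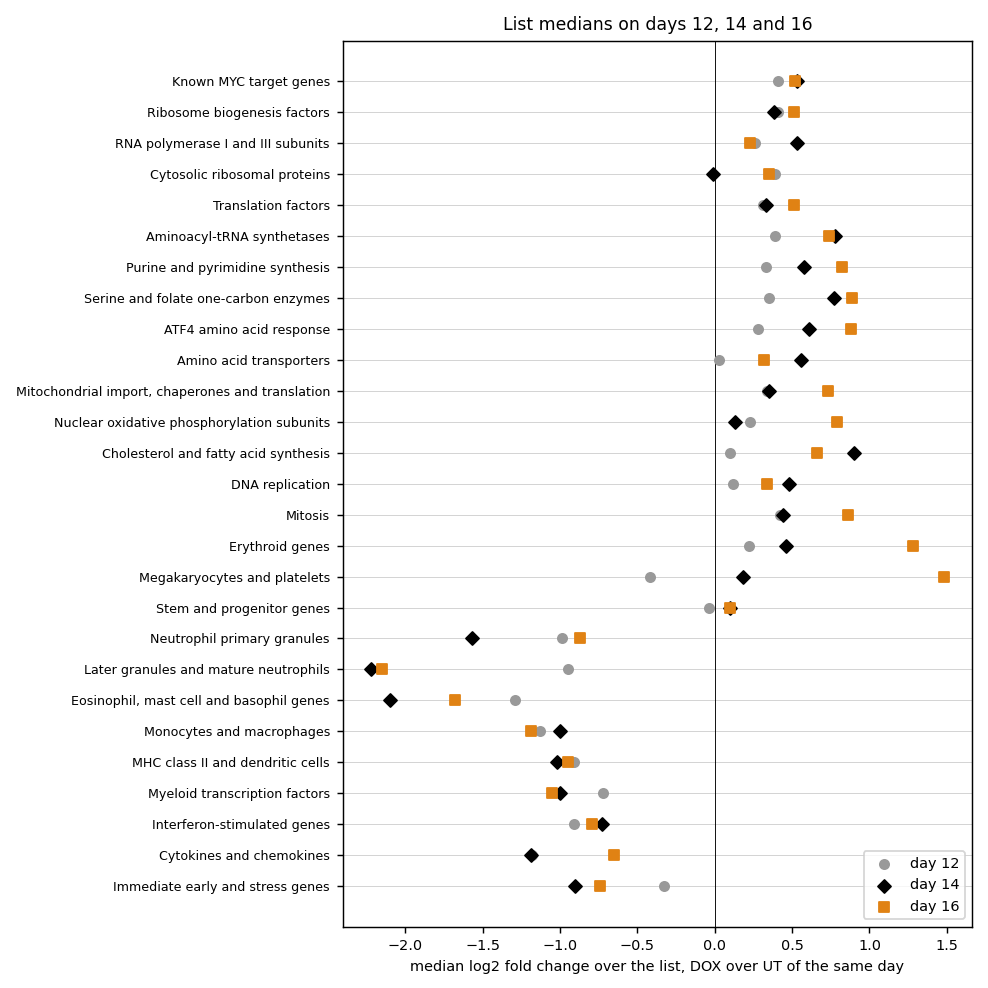
Median log2 fold change of DOX over UT of the same day for 27 gene lists on days 12 (grey), 14 (black) and 16 (orange). Megakaryocyte and platelet genes have −0.42, 0.18 and 1.48 on the 3 days, while eosinophil, mast cell and basophil genes stay negative at −1.29, −2.10 and −1.68.

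The place of each library on the untreated course was measured along the line from UT day 12, set at 0, to UT day 16, set at 1, over all tested genes. The DOX day-14 libraries lay at 0.183 and 0.129 and the UT day-14 libraries at 0.455 and 0.497, and the groups did not overlap. With the transcript length trend removed from each library the values were 0.170 and 0.121 for DOX and 0.431 and 0.470 for UT. With 2 libraries against 2, an exact permutation test cannot go below p = 0.333 two-sided, so the difference is given without a call.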

How the data were processed

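PolyA RNA of haematopoietic progenitor cells made from H1 cells was sequenced in 22 libraries, 12 UT and 10 DOX, in 11 groups of arm and day with 2 libraries each. Per the submitters' processing notes, Trim Galore 0.6.5, STAR and Salmon were used with hg38; the versions of STAR and Salmon, the annotation and the strand setting are not given in the sources used here, so overlapping and antisense genes cannot be told apart. The authors deposited expected counts (estimated reads per gene and library, not normalised), of which 88.3% were whole numbers; they were rounded. Of 60240 genes, 23698 had 0 counts in every library. Because nothing was normalised for length, levels of different genes are not comparable.

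The filterByExpr rule of edgeR 4.0.16, with its minimum count of 10, left 20115 genes to test; scaling was by TMM. All 22 libraries entered 1 quasi-likelihood model with a coefficient for each of the 11 groups, so that 11 degrees of freedom remained, and the common biological coefficient of variation came to 0.184. This model gave the day-14 contrast, those of days 12 and 16 and the differences between them; the 3 differences between days all use the 4 day-14 libraries and so are not independent. The call threshold was 0.05 on p-values adjusted by Benjamini-Hochberg over all tested genes. Standard errors are the log2 fold change divided by the root of the F statistic. The fit was tested on simulated data. Each day-14 library held at least 37858046 counts; floors cover counting error only. Gene positions and transcript lengths came from GENCODE 29, which matched 58020 identifiers.

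The comparison, the 43 gene lists and the tests were chosen with earlier results of these data known, so the lists are described by counts and medians and have no test of their own. Named genes are MYC, the 12 highest and lowest called genes over 2 CPM, the 6 highest and lowest over 100 CPM, the first and up to 4 called members of each list with the largest changes, and the 5 highest and lowest of each contrast between days. Alternatives were DESeq2 1.42.0, limma-voom (limma 3.58.1), other scalings and filters, a replicate block, mitochondrial genes removed, the 4 day-14 libraries alone, each library left out, stricter thresholds, and, chosen after seeing the data, removal of length and GC trends. The main model did not pair the libraries by replicate number. The correlation of deviations by replicate number was 0.0436 between the 2 day-14 groups. Over all pairs of groups it ran from −0.0156 (DOX day 16 with UT day 12) to 0.195 (DOX day 16 with UT day 14). These values do not settle whether replicate numbers pair the libraries.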

Additional observations from a re-analysis of the deposited data

Results flagged for a closer look

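The following results stand here because the DOX against UT difference on day 14 differed from that on neighbouring days by a direct test (edgeR quasi-likelihood, adjusted p under 0.05). It was called for 595 genes against day 12, 1738 against day 16 and 332 against the mean of both, counts that rested on single libraries as given above.

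Against day 12, MMP25 (−2.10), KLF2 (−2.22), OSCAR (−1.86) and HSH2D (−1.80) had lower differences on the log2 scale, as had the metallothionein MT1X (−3.34), which stood at 2.26 on day 12 and −1.08 on day 14. SRCAP (2.50), a chromatin remodeller, and LIMS3 (2.03) were higher, but kept their calls in 2 and 0 of the 8 fits with a library left out, and SRCAP lost its call with the length trend removed (adjusted p = 0.087). The read-through genes BLOC1S5-TXNDC5 (11.27) and FMC1-LUC7L2 (6.45) and the short gene ASDURF (9.40) share exons with other genes, and their sizes depend on libraries at or near 0 counts.

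Against day 16, UTP14C (5.91) and ANKRD36C (3.30) were higher and called in all 8 such fits. The size for UTP14C depends on a library at 0, with 2.01 and 0 CPM in DOX day 16 and 7.14 and 22.3 CPM in UT day 16. Its difference ran from 4.86 to 14.34 with a library left out. FN1 (5.45), COL5A2 (4.42) and COL4A1 (3.06), which encode matrix proteins, were called in 2, 1 and 1 of them and did not pass with the length trend removed (adjusted p = 0.059, 0.065 and 0.068); on day 14 alone they stood at 0.14, 0.51 and −0.89. DEFA1B (−16.81), HNRNPUL2-BSCL2 (−13.48), TBC1D3D (−11.90), ISY1-RAB43 (−11.71) and EIF3CL (−3.87) were lower, and all are copies or read-through genes whose reads are shared.

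Against the mean of both days, REL (1.86), an NF-kB subunit, ZNF366 (1.86), the bicarbonate transporter SLC4A7 (1.62), NOMO3 (1.61) and ASDURF (14.57) were higher. NOMO3 and ASDURF were called in all 12 fits with a library left out, REL in 6, and ZNF366 and SLC4A7 in 1 each; NOMO3 has near-identical copies. REL, ZNF366 and SLC4A7 lost their calls with the length trend removed (adjusted p = 0.073, 0.098 and 0.11). HNRNPUL2-BSCL2 (−6.49), TBC1D3D (−6.49), PF4 (−1.48), HBE1 (−1.38) and PPBP (−1.30) were lower. PF4, HBE1 and PPBP kept their calls in 8, 3 and 7 of those 12 fits, and in none with the length trend removed. They were above 0 on day 16, at 2.21, 1.28 and 1.36, and below 0 on days 12 and 14.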

How the results depend on the processing

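The log2 fold change of MYC kept its direction and call under every alternative run (1.18 to 1.39, and 0.98 to 1.59 with a library left out). The 5422 day-14 calls became 3363 at an adjusted p under 0.01 and 2061 with a 2-fold minimum, and 2824 to 4156 with a library left out (1741 to 2394 higher, 1083 to 1762 lower). They were 6056 with the replicate block, 6415 with DESeq2, 7492 with limma-voom, 6299 with the 4 day-14 libraries alone and 4668 and 4780 with the trends on length, or on length and GC, removed; the block lost no call among the named genes, and MYC stood at 1.28 under it. Of the 190 named called genes other than MYC, 174 kept their call with the length trend removed, and 159 to 169 with a library left out; 0 changed sign.

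The differences between days were less stable. The 595 calls against day 12 became 2012 with DESeq2, 2122 with limma-voom, 1312 with no filter, 1193 with the replicate block, 239 with library sizes alone, and 238 and 295 with the trends on length, or on length and GC, removed (28 to 722 with a library left out). The 1738 calls against day 16 became 2963 with DESeq2 and 8583 with library sizes alone (697 to 1598 with a library left out). The 332 calls against the mean of both days became 1404, 1202, 955, 835 and 2572 with DESeq2, limma-voom, no filter, the replicate block and library sizes alone, and 47 and 108 with the same trends removed (6 to 533 with a library left out). Library sizes alone shifted the median of all genes by −0.952 against day 16 and −0.456 against the mean. The TMM factors were 0.703 and 0.716 in UT day 16 and 1.38 and 1.33 in DOX day 16. With mitochondrial genes removed, 1692 genes were called against day 16. The other causes were not tested. FN1 against day 16 was −0.82 without replicate 2 of UT day 16, against 5.45, and 6.44 without replicate 1. With 2 libraries a group, each call rests on the spread shared over all 11 groups.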
